A study of Mus musculus with 1 sample.

Results

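The genes described here are 9 members of the bone morphogenetic protein (BMP) system in a culture of mouse pancreas fibroblasts: the ligand genes Bmp2, Bmp4 and Bmp6, the receptor genes Bmpr1a, Bmpr1b and Bmpr2, and the antagonist genes Grem1, Nog and Chrd. They were chosen by name, and all 9 had exactly 1 row each among the 24214 rows of the deposited table, which stand for 23386 genes. RNA sequencing of 1 library was analysed; by its labels it is a culture of normal fibroblasts, grown out from normal pancreas. The donor mouse is labelled tf1acre-;KrasWT;Tgfrb2flox/flox, so Cre-negative with floxed alleles, and its strain background as mixed (C57BL/6 and BALB/c). The labels used here give no age or sex. The value column of the table carries a CAF code, the usual abbreviation of cancer-associated fibroblast, which disagrees with the label, so the sample is called the library labelled normal fibroblast. No second condition and no replicate was analysed here, so the values are levels within 1 library, no difference between conditions was tested, and intervals are at 95% and cover counting error only.

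BMPs are secreted dimers of the TGF-beta superfamily. They assemble type I receptors (among them the products of Bmpr1a and Bmpr1b) with a type II receptor such as that of Bmpr2, and the type I kinase then phosphorylates the transcription factors SMAD1, SMAD5 and SMAD9, which act with SMAD4. Gremlin 1, noggin and chordin, the products of Grem1, Nog and Chrd, bind BMPs outside the cell and keep them from the receptors. The pathway shapes gut and pancreas mesenchyme in development, and Grem1 is known as a stromal source of BMP inhibition in the intestine.

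The library held 52494688 reads, so that 1 read is 0.0190 CPM (reads per 1000000 reads in the table). Levels of different genes are compared per length, as TPM over protein-coding genes: reads per exonic kilobase, scaled so that the 20488 coding genes with a known length sum to 1000000. On this scale the median coding gene had 5.97 TPM, and the median of the 13883 coding genes with at least 10 reads was 25.0 TPM. By definition 50% of each of these sets lay above its own median. Fewer of all coding genes lay above the second: a level of 27.2 TPM exceeded 67.5% of them. All 8 fibroblast markers examined (Vim, Col1a1, Pdgfra and others) had 15164 reads or more, and their median was 1019 TPM. All 5 mesothelial markers were present too, with a median of 208 TPM and a summed 1078 TPM against 9669 TPM for the fibroblast markers. Of the 6 acinar markers 5 had at least 10 reads (summed 817 TPM; Ptf1a had 6 reads). The ductal, endothelial, macrophage, and pericyte and smooth muscle markers summed to 42.3, 103, 23.8 and 129 TPM; Most of the endothelial sum came from Kdr (102 TPM), while Pecam1 had 13 reads, and most of the pericyte and smooth muscle sum from Mcam (105 TPM), while Rgs5 had 6. Most of the macrophage sum came from Cd68 (18.05 TPM, 235 reads). Csf1r had 268 reads and Ptprc 26, and no marker examined was at 0. The part of such cells in the levels below was not tested, and in a bulk library few cells with much RNA and many cells with little cannot be told apart.

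The 9 genes spanned 2394-fold in level per length, with Bmpr1a highest and Bmp2 lowest. Of them 8 had at least 10 reads, or 88.9%, beside 67.8% of all coding genes. Their median level was 5.05 TPM, below the 5.97 TPM of all coding genes. Of the 9, 4 lay above that median, beside 50% of coding genes by definition. Above the median of coding genes with at least 10 reads lay 3 of the 9 (Bmpr1a, Grem1 and Bmpr2). The lowest of these, Bmpr2, exceeded 67.7% of all coding genes, so this count is near the share of all coding genes above that line. The order per length was Bmpr1a, Grem1, Bmpr2, Chrd, Bmp6, Bmp4, Bmpr1b, Nog and Bmp2. Of the 8 pairs of neighbours in this order, only Bmp4 and Bmpr1b had a ratio whose counting interval held 1 (1.23, interval 0.948 to 1.60). The order was the same with the longest transcript or the transcript of the row's accession as the length. With the coding sequence as the length Bmp4 and Bmpr1b changed places (ratio 0.573, 0.440 to 0.742).

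**Figure D1:**
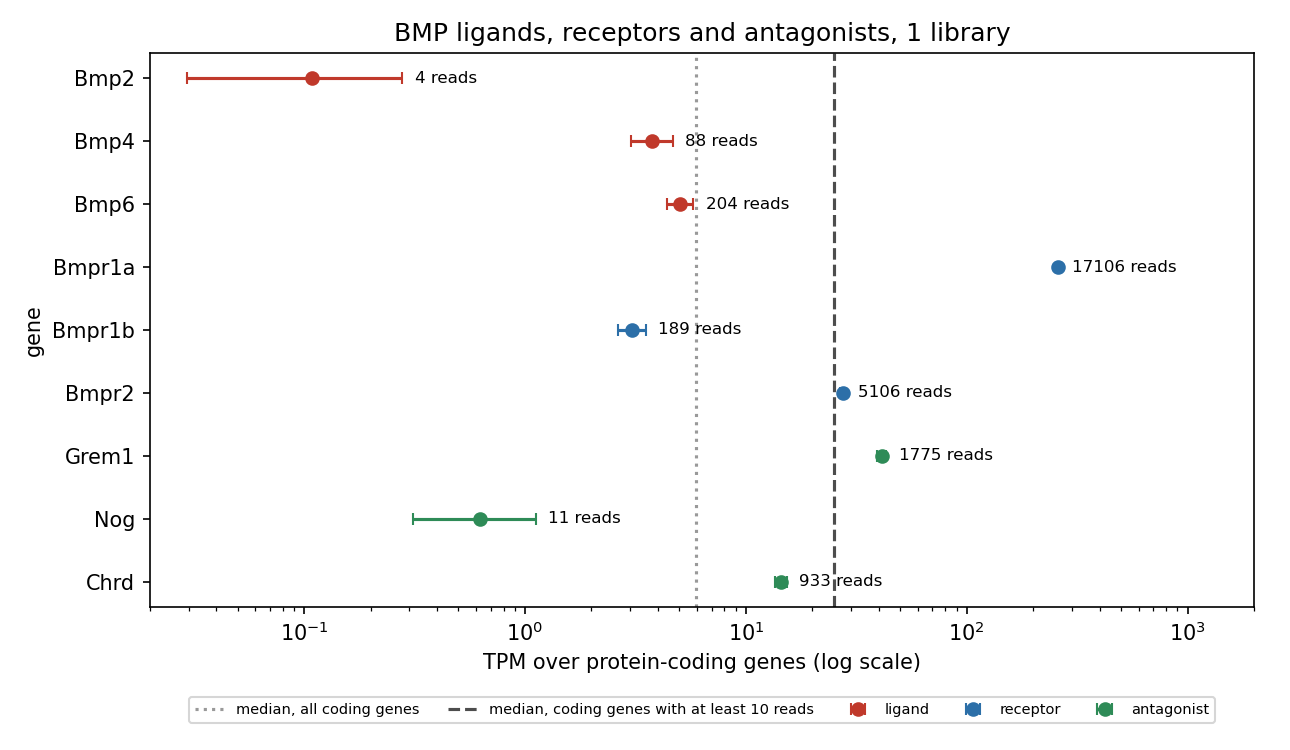
Level of each of the 9 genes in the 1 library, in TPM over protein-coding genes on a log axis, coloured by role; bars are exact Poisson 95% intervals (counting error only), the dotted line is the median of all coding genes (5.97 TPM) and the dashed line that of coding genes with at least 10 reads (25.0 TPM). Only Bmpr1a, Bmpr2 and Grem1 lie right of the dashed line, and all 3 ligands lie left of the dotted one.

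Among the receptors, Bmpr1a stood far above the others. Bmpr1a, which encodes the type I receptor ALK3 (GRCm38 chromosome 14, 34411061 to 34503336, minus strand), had a deposited value of 20117.86, or 17106 reads, 326 CPM (321 to 331) and 260 TPM (256 to 264). It was 10.4 times the median of coding genes with at least 10 reads, and higher than 97.0% of all coding genes. Bmpr1b, the gene of the related type I receptor ALK6 (chromosome 3, 141837135 to 142169585, minus strand), had a deposited value of 222.28, or 189 reads, 3.60 CPM (3.11 to 4.15; exact Poisson interval) and 3.06 TPM (2.64 to 3.53), higher than 46.0% of coding genes. Per length Bmpr1a was 85.0 times Bmpr1b (exact conditional binomial interval 73.6 to 98.6), and between 81.3 and 90.5 times under the other lengths and with no division by length. Bmpr2, the gene of the type II receptor (chromosome 1, 59764279 to 59878081, plus strand), had a deposited value of 6005.02, or 5106 reads, 97.3 CPM (94.6 to 99.97) and 27.4 TPM (26.7 to 28.2). Its 17983 exonic bases make it the longest of the 9 genes, so that it was higher than 89.1% of coding genes by CPM and than 67.7% by TPM. Bmpr1a exceeded Bmpr2 9.49-fold per length (9.19 to 9.79), or 6.54 to 7.26-fold under the other lengths.

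The coding sequences of the 2 type I receptors are alike enough that their separation by reads matters for this ratio. Their most alike stretch of 120 coding bases, read in frame from the GENCODE M21 transcripts of the rows' accessions, is shown with identical bases in capitals and differing ones in lower case; it covers coding bases 1165 to 1284 of Bmpr1a and 1075 to 1194 of Bmpr1b.
Bmpr1a: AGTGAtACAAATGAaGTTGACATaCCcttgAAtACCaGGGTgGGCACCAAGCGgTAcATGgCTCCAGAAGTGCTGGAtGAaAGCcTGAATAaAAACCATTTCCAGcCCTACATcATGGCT
Bmpr1b: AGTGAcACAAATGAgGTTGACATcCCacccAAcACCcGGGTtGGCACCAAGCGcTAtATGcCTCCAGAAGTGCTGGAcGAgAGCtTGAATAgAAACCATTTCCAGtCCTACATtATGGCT
Within it 101 of 120 bases are identical (84.2%), and no identical run is longer than 16 bases. That is also the longest run that any 2 of the 9 transcripts share in the same orientation, among all 36 pairs. No stretch of 35 bases of the Bmpr1b transcript occurs in a transcript of another gene. Of those of Bmpr1a, 256 of 5922 do, all in Gm17110, an antisense gene on the opposite strand that shares 290 exonic bases with it. Neither the read length nor the strand setting is given in the sources used here.

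The promoter windows found for these receptors also differ in composition. The 250 bases before a transcript start, taken from RefSeq (GRCm38.p6), are shown for both with CpG pairs in capitals; for Bmpr1b, which has 3 windows in the table, the one farthest upstream of these is shown. All 3 lie inside the annotated Bmpr1b gene, and its outermost start has no window among them. The Bmpr1a window lies inside its annotated gene too, whose outermost start is at 34503336. The comparison is therefore between internal windows, and neither outermost start was described. The windows shown lie at chr14:34502547-34502796 and chr3:141982265-141982514, both on the minus strand.
Bmpr1a: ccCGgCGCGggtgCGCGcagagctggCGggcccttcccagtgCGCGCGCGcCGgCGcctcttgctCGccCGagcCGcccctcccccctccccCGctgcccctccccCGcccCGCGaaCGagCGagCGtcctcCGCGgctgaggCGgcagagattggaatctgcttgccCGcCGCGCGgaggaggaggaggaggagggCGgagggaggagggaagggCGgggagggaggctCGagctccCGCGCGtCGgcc
Bmpr1b: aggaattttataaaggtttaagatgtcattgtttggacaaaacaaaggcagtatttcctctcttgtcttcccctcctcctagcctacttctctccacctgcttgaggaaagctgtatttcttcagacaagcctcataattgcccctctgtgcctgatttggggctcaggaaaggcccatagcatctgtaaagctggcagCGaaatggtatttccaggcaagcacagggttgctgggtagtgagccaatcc
The Bmpr1a window holds 36 CpG pairs, more than 97.4% of the 32851 promoter windows of all genes, whose median is 6. The 3 Bmpr1b windows hold 1, 5 and 5. Windows were found for 7 of the 9 genes, which leaves Bmp2 and Nog without one. Those of Chrd, Grem1, Bmpr2, Bmp6 and Bmp4 hold 28, 24, 22, 22 and 11 CpG pairs. The Chrd window also lies inside its annotated gene, while the windows of Grem1, Bmpr2, Bmp6 and Bmp4 lie directly before theirs. The letters GGCGCC, a GC-rich word that reads the same on both strands and is known from BMP-responsive promoters, occur in 4 of the 9 windows (Bmpr1a, Bmpr2, Chrd and Grem1), beside 9.6% of all windows; the word itself holds a CpG pair. The 4 windows with the word hold 22 to 36 CpG pairs, and its share over windows of like CpG content was not computed. A match is a description of letters and shows no binding.

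**Figure D2:**
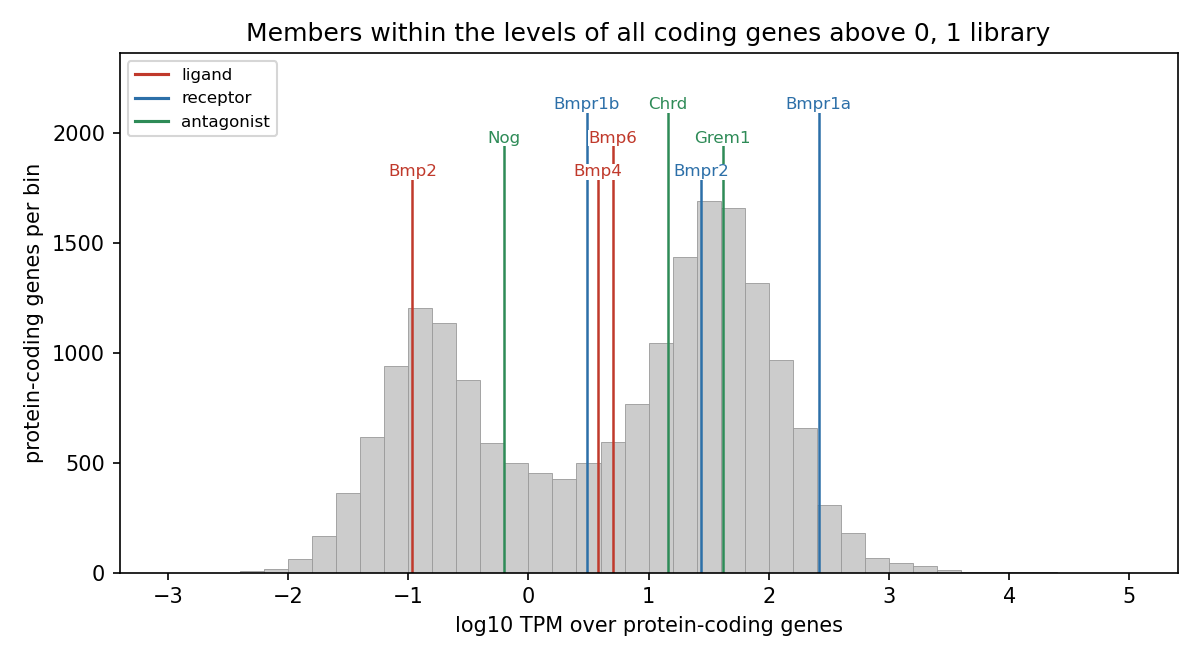
Histogram of log10 TPM over the protein-coding genes with at least 1 read in the 1 library (grey bars, number of genes per bin), with the position of each of the 9 genes as a vertical line coloured by role. Bmp2 (0.109 TPM) lies in the low peak, Bmpr2 and Grem1 in the high one, Bmpr1a (260 TPM) on its right flank, and Nog (0.627 TPM), Bmpr1b, Bmp4 and Bmp6 between the peaks.

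The 3 ligands were low. Bmp2 (chromosome 2, 133552159 to 133562896, plus strand), a ligand known for inducing bone, had a deposited value of 4.70, or 4 reads, 0.0762 CPM (0.0208 to 0.195) and 0.109 TPM (0.0296 to 0.278). It was the only 1 of the 9 genes under 10 reads, and higher than 20.8% of coding genes. Bmp4 (chromosome 14, 46383525 to 46390669, minus strand), the closest relative of Bmp2 and a ligand of early mesoderm and gut mesenchyme, had a deposited value of 103.49, or 88 reads, 1.68 CPM (1.34 to 2.07) and 3.78 TPM (3.03 to 4.66), higher than 47.1% of coding genes. Bmp6 (chromosome 13, 38345716 to 38500314, plus strand), which controls hepcidin and so iron uptake when made by liver endothelium, had a deposited value of 239.92, or 204 reads, 3.89 CPM (3.37 to 4.46) and 5.05 TPM (4.38 to 5.79), higher than 48.9% of coding genes. None of the 3 reached the median of all coding genes. Per length Bmp6 was 1.34 times Bmp4 (1.04 to 1.74), and Bmp4 was 34.8 times Bmp2 (13.1 to 130.5), a wide interval because it rests on the 4 reads of Bmp2.

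The most alike 120 coding bases of Bmp4 and Bmp2 are shown in the same way, since close copies can share reads; they cover coding bases 943 to 1062 of Bmp4 and 901 to 1020 of Bmp2, toward the end of each coding sequence.
Bmp4: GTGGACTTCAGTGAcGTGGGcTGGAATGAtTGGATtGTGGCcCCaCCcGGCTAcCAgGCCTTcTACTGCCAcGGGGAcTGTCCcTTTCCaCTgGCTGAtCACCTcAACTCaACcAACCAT
Bmp2: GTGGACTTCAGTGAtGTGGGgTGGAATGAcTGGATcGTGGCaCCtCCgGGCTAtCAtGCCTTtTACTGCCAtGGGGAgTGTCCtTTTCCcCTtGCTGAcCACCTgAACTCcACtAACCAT
Here too 101 of 120 bases are identical, with no identical run over 14 bases, and no 35-base stretch of the Bmp2 transcript occurs in a transcript of another gene. Bmp6 overlaps another gene: 224 of its 3900 exonic bases (5.74%) lie opposite exons of Txndc5, the gene of a protein disulfide isomerase, which had 19657 reads. Spread evenly over Txndc5, these would put 980 reads on the shared bases, whereas Bmp6 had 204 in all. Whether the 204 reads lie in the shared or in the other bases cannot be read from a table of gene totals. The level of Bmp6 and its place above Bmp4 are therefore uncertain. Bmp4 shares 89 exonic bases with Gm15217 on the opposite strand, a gene with 4 reads. Of the 35-base stretches of the Bmp4 transcript, 86 of 2030 (4.24%) also occur in transcripts of other genes, 30 of them in the same orientation.

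Among the antagonists, Grem1 and Chrd were present and Nog was scarce. Grem1 (chromosome 2, 113748675 to 113758648, minus strand) had a deposited value of 2087.53, or 1775 reads, 33.8 CPM (32.3 to 35.4) and 41.3 TPM (39.4 to 43.3), second of the 9 per length and higher than 75.0% of coding genes. Its coding sequence takes only 13.3% of its 4148-base transcript, so with coding length as the divisor its level was 93.3 TPM, and its excess over Chrd, 2.87-fold per exonic length (2.65 to 3.11), lay between 1.5 and 10-fold under the other lengths. Grem1 was 1.51 times Bmpr2 (1.43 to 1.59) per exonic length, 1.08 times (1.02 to 1.14) per longest transcript and 1.96 times (1.86 to 2.07) per coding length. Of the 35-base stretches of the Grem1 transcript, 133 of 4114 (3.23%) also occur in transcripts of other genes.

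Chrd (chromosome 16, 20731425 to 20742384, plus strand), whose product carries several BMP-binding repeats, had a deposited value of 1097.27, or 933 reads, 17.8 CPM (16.7 to 19.0) and 14.4 TPM (13.5 to 15.4), higher than 58.0% of coding genes. It shares 239 exonic bases with Thpo, the thrombopoietin gene, on the opposite strand, which had 177 reads; spread evenly, 16.1 of these would lie on the shared bases. Nog (chromosome 11, 89300638 to 89302559, minus strand), the gene of noggin and a gene of a single exon, had a deposited value of 12.94, or 11 reads, 0.210 CPM (0.105 to 0.375) and 0.627 TPM (0.313 to 1.12). No 35-base stretch of it is shared with another gene. Per length Grem1 was 65.9 times Nog (36.8 to 132.3), and 65.9 to 203.5 times under the other lengths.

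Summed by role, the 3 receptors took 81.7% of the TPM of the 9 genes, the 3 antagonists 15.8% and the 3 ligands 2.51%. Bmpr1a made up 89.5% of the receptor sum, Grem1 73.3% of the antagonist sum and Bmp6 56.5% of the ligand sum. The Bmp6 level is uncertain through its overlap with Txndc5, and so are the ligand sum and every ratio below that includes Bmp6. Their intervals do not cover this. Receptors exceeded ligands 32.5-fold per length (28.9 to 36.6, delta-method interval), and 7.84-fold without Bmpr1a and Bmp6, so 1 gene of each sum carries much of this ratio. Antagonists exceeded ligands 6.30-fold per length (5.57 to 7.14), 3.86-fold without Grem1 and Bmp6, and 17.0-fold per coding length. Grem1 alone was 10.9 times Bmp4 (8.82 to 13.7) and 8.18 times Bmp6 (7.07 to 9.50), or 10 to 44.7 times and 7.54 to 24.1 times under the other lengths. The ratios hold for these 9 genes only, whose receptors summed to 290.5 TPM, antagonists to 56.3 TPM and ligands to 8.94 TPM. The 15 other BMP and GDF ligands described below summed to 249.9 TPM, most of it from Gdf6 (198 TPM). The 4 other BMP-binding receptors summed to 55.5 TPM. The 17 other antagonists and modulators summed to 3416 TPM, most of it from Fstl1 (1298 TPM) and Crim1 (993.5 TPM). Ratios over these wider sets were not computed. Such ratios compare RNA levels and not amounts of protein.

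**Figure D3:**
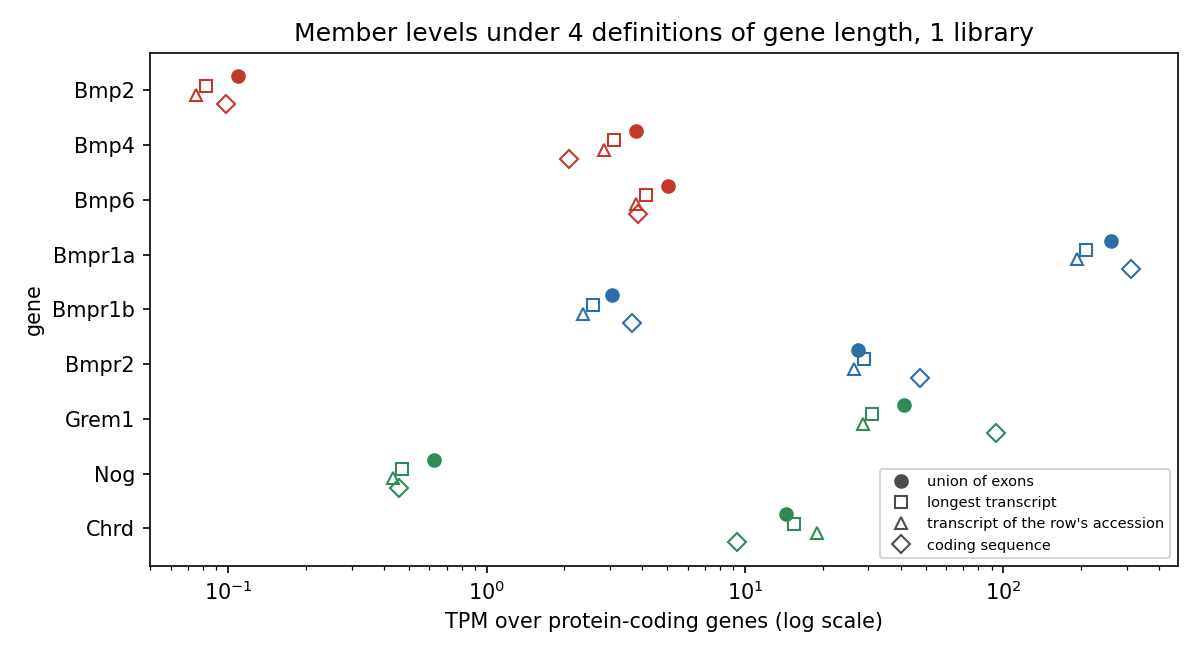
Level of each of the 9 genes in the 1 library (TPM over protein-coding genes, log axis) under 4 definitions of gene length: union of exons (filled circles), longest transcript, transcript of the row's accession, and coding sequence. Grem1 moves most between its symbols, up to 93.3 TPM with the coding sequence against 41.3 TPM with the union of exons, while Bmpr1a stays highest and Bmp2 lowest under all 4.

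The rest of the pathway was described from 8 lists of 72 genes. Of these 57 had at least 10 reads (79.2%, beside 67.8% of coding genes), and their median was 23.3 TPM. Above the median of coding genes lay 44, beside 50% of coding genes by definition. For the counts per list below, the share of all coding genes with at least 10 reads is again 67.8%. For the median of coding genes with at least 10 reads, a level of 27.2 TPM exceeded 67.5% of all coding genes. The other ligands were mostly low: 7 of 15 reached 10 reads and 2 of 15 exceeded the median of coding genes with at least 10 reads, with a list median of 0.291 TPM. The most abundant was Gdf6, the gene of a BMP-family ligand known from joint and skull formation, with 7230 reads and 198 TPM (193 to 202). Per length it was 39.1 times Bmp6 (34.0 to 45.2), and 36.1 to 39.8 times under the other lengths. Gdf11, the gene of a ligand of the activin branch, followed at 29.5 TPM, and Bmp5 had 2 reads.

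Of the other receptors that bind BMPs, all 4 reached 10 reads, and the list median was 13.1 TPM. Acvr2a, a type II receptor shared with activins, led at 27.2 TPM (25.9 to 28.6), and Bmpr2 was 1.01 times as high (0.953 to 1.07); under the other lengths Bmpr2 was 1.4 to 1.58 times Acvr2a. Acvr2b had 2.09 TPM. Bmpr1a was 13.4 times the type I receptor gene Acvr1 (12.6 to 14.4), or 9.77 to 16.9 times under the other lengths. Of the co-receptors and the pseudoreceptor 6 of 7 reached 10 reads, and the list median was 19.0 TPM: Neo1, the gene of neogenin, which binds repulsive guidance molecules, had 206 TPM, the endoglin gene Eng 80.3 TPM and the betaglycan gene Tgfbr3 58.0 TPM, while Hfe2, the hemojuvelin gene, had 4 reads.

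Several secreted or membrane-bound modulators were far more abundant than the 3 antagonists above. In that list of 17 genes, 13 reached 10 reads and 9 exceeded the median of coding genes with at least 10 reads, with a list median of 40.4 TPM. Fstl1, a follistatin-like protein gene, had 1298 TPM and Crim1, the gene of a membrane protein with chordin-like repeats, 993 TPM. Htra1, the gene of a secreted serine protease, had 374 TPM, and Bmper, whose product binds BMPs and chordin, had 207 TPM, 5.02 times Grem1 (4.77 to 5.28; 1.57 to 6.40 under the other lengths). Twsg1, the gene of twisted gastrulation, which helps chordin bind BMPs, had 170 TPM. Cer1 had 0 reads, a count that allows up to 3 reads or 0.167 TPM, a floor that is lower than the upper end of the exact 2-sided Poisson interval (0.205 TPM).

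The proteases that cut chordin or mature the ligands were present, with 6 of 7 genes at 10 reads or more and a median of 56.0 TPM. The proprotein convertase gene Pcsk6 had 136 TPM and Furin 60.2 TPM; Bmp1, which despite its name encodes a protease that cleaves chordin and procollagens, had 110 TPM and its relative Tll1 56.0 TPM. Pcsk7 had 39.3 TPM and Tll2 8 reads. All 4 transducer genes had at least 10 reads: Smad4 had 234 TPM, Smad5 72.4 TPM, Smad1 42.7 TPM and Smad9 17.6 TPM. All 8 intracellular inhibitors lay above the median of coding genes with at least 10 reads, with a list median of 81.8 TPM. Smurf2, a ubiquitin ligase gene, had 240 TPM, the inhibitory SMAD gene Smad7 187 TPM, the corepressor gene Ski 143 TPM, Tob1 91.2 TPM, Smurf1 72.4 TPM and the phosphatase gene Ppm1a 37.9 TPM.

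Of the 10 genes listed as responding to BMPs, 9 reached 10 reads and 5 exceeded the median of coding genes with at least 10 reads. Id1, Id3 and Id2, inhibitors of helix-loop-helix transcription factors, had 344, 261 and 195 TPM, above 98.0%, 97.0% and 95.2% of coding genes; Atoh8 had 95.7 TPM and Id4 51.4 TPM, and Dlx5 had 4 reads. These genes answer to other signals as well, and no value here measures signalling.

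**Figure D4:**
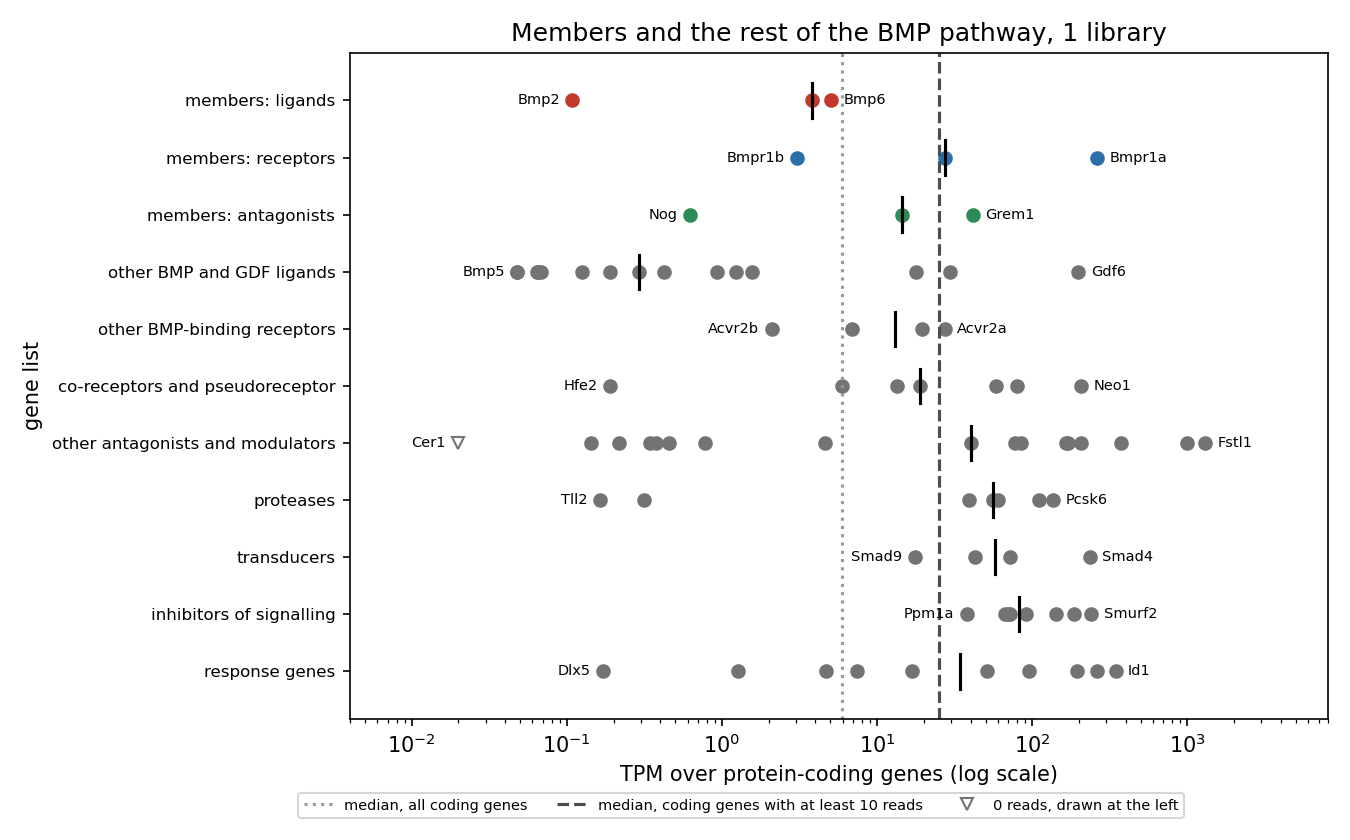
Level of every gene of the 3 roles described (coloured) and of the 8 lists of other pathway genes (grey) in the 1 library, in TPM over protein-coding genes on a log axis; each row is a list, black bars are list medians, the dotted and dashed lines are the medians of all coding genes and of those with at least 10 reads, and the lowest and highest gene of each list is named. Gdf6 stands apart from the other ligands, and the inhibitors of signalling all lie right of the dashed line.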

How the data were processed

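Total RNA was extracted with TRIzol and sequenced from a SOLiD library, per the labels' protocols. The authors' deposited table holds a normalised signal: 20973 of its 20976 values above 0 (99.99%) are whole multiples of 1.1761 within 0.006, so read counts had been divided by a library-wide factor of 0.8503. DESeq and mm10 are named, without their roles, in the submitters' processing notes; the aligner, counter, strand setting and read length were not given in the sources used here. Every measure uses these whole reads. Their recovery was tested only on data simulated as whole reads divided by a known factor. Such data cannot show that the deposited values arose in this way. Rows of copies were summed. Exonic lengths are unions of GENCODE M21 exons; coordinates are from RefSeq (GRCm38.p6, the assembly mm10 denotes), with 98.5% of genes matched by accession. A gene counted as protein-coding if any of its accessions started with NM.

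With 1 library no count test was possible. CPM intervals are exact Poisson intervals. Ratios between single genes have exact conditional binomial intervals, and ratios between sums by role have delta-method ones. All cover counting error only, and reads are not independent molecules. All 9 genes are named, and of each pathway list the most and least abundant members and those above the median of detected coding genes, up to 6. A gene of these lists is not reported here. The members and lists were chosen with earlier results of these data known. Alternatives were other lengths, totals, detection thresholds and backgrounds. Software was scipy 1.17.1, numpy 2.4.6, pandas 2.3.3 and matplotlib 3.10.9 under Python 3.11.15.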

Additional observations from a re-analysis of the deposited data

How the results depend on the processing

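No paired analysis was possible because only 1 library was analysed, and no replicate could be left out. Without division by length, the receptor to ligand ratio was 75.7 and the antagonist to ligand ratio 9.19; with coding length, a setting chosen after seeing the data, they were 59.8 and 17.0. With the transcript of the row's accession, also chosen after seeing the data, the antagonist to ligand ratio was 7.15. Without the leading member of each class they were 7.84 and 3.86. All of these stayed above 1, but none counts the ligands outside the 9 genes, such as Gdf6. Those that keep Bmp6 also carry its uncertain level. The Bmpr1a to Bmpr1b and Bmp4 to Bmp2 ratios stayed within their counting intervals under the 4 other settings, at 81.3 to 90.5 and 21.2 to 37.9. The number of members detected was 9 of 9 at 1 read, beside 90.9% of coding genes, and 7 of 9 (77.8%) at 50 reads, beside 57.8%. A total of coding genes raised every CPM by 0.12 log2 units, and leaving out the 100 most abundant genes by 0.42. The planned coding length from a protein table was not run. Annotated coding sequences took its place, and this replacement is the setting chosen after seeing the data. Depth limits Bmp2 (4 reads) and Nog (11 reads) most.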
